A study of Mus musculus with 18 samples.

Results

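Mycl, Smim5, Gm42517 and Gm9747 were examined here, 4 of the 33440 mouse genes to which reads could be assigned. They were picked for large rises in IRF3 knockout adipocytes, so their levels in that comparison are given as a description with no test. IRF3 is a transcription factor of the innate immune response, and the study asked which adipocyte genes lie downstream of it. Levels are CPM (a gene's share of the estimated reads of its library, scaled to a common total) unless stated otherwise, and errors are SD over libraries.

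The knockout comparison used epididymal white adipose tissue (eWAT) of C57BL/6 mice after 8 weeks of high-fat diet (HFD) at thermoneutrality. FI3KO mice lack Irf3 in adipocytes, through a floxed allele and Cre driven by Adipoq, and WT mice have it. Both groups carry the Ad-NuTRAP reporter, which tags the ribosomes of Adipoq-Cre cells with GFP, so that translating ribosome affinity purification (TRAP) with an antibody to GFP recovered RNA on adipocyte ribosomes, 6 libraries per group. By the study's methods, males went onto the diet at 8 weeks of age and the fat pads for SVF culture came from mice of 4 to 6 weeks, without an age for single libraries. The methods give that starting age for a longer diet than the 8 weeks given for these libraries. The other comparison used cultured adipocytes differentiated from the stromal-vascular fraction (SVF) of inguinal fat of IRF3-2D mice, whose constitutively active Irf3 allele is silent until Cre acts. FI3OE cells received AAV with Cre and WT cells AAV with GFP, 3 libraries each. The WT SVF cells thus hold the allele before recombination, and the FI3OE cells had Cre as well as active IRF3. The labels call all libraries biological replicates without saying that each came from its own animal or culture, so the p-values measure the spread between libraries, which may be in part technical.

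Mycl encodes L-MYC, a member of the MYC family of transcription factors that dendritic cells are known to express. MYC proteins pair with MAX and bind E-box motifs in promoters, and MAX also pairs with MXD proteins and MNT, which oppose MYC at those motifs, while MLX pairs with MLXIP and MLXIPL (ChREBP), which respond to glucose. Smim5 encodes a small integral membrane protein. Gm42517 is a predicted protein-coding gene that RefSeq also lists as Tmem271. Gm9747 is a predicted protein-coding gene model inside Irs1, the gene of an adaptor that carries the signal of the insulin receptor, on the opposite strand.

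In GRCm38, Mycl (ENSMUSG00000028654.13) lies at chr4:122995652-123002485 on the plus strand and has 5 annotated transcripts. Smim5 (ENSMUSG00000048442.15) lies at chr11:115899966-115906269 on the plus strand, within the span of Recql5 on the other strand, but shares 0 exon bases with it. Gm42517 (ENSMUSG00000105867.2) lies at chr5:108366073-108367922 on the minus strand, and 139 of its 1850 exon bases (7.51%) are also exon of Gm10419, a noncoding RNA gene on the plus strand. Gm9747 (ENSMUSG00000022591.5) is a single exon at chr1:82233112-82235933 on the plus strand.

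RefSeq start-site sequences, 250 bases before to 50 after the start, were found for Mycl and Gm42517. The whole Mycl window lies inside the GENCODE gene, which starts at chr4:122995652, so sequence before that start was not searched for motifs. They are shown because both genes are members with a start-site sequence and because the start of Gm42517 faces that of Gm10419. Capitals mark TATAAA in Mycl, at chr4:122995681-122995980 on the plus strand, and in Gm42517, at chr5:108367868-108368167 on the minus strand, the 87 bases that are exon of Gm10419 (sequences from RefSeq, GRCm38.p6).
Mycl: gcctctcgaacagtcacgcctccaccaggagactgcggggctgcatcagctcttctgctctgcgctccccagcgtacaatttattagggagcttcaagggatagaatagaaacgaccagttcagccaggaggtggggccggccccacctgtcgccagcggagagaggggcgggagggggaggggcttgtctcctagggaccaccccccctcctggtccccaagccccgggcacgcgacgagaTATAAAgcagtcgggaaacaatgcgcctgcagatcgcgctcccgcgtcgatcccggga
Gm42517: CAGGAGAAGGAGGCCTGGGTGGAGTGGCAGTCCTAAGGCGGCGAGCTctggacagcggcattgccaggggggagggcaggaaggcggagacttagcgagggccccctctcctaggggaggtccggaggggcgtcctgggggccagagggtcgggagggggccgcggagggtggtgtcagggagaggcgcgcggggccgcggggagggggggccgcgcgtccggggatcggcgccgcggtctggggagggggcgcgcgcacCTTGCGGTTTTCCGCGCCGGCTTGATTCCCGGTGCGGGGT
The TATAAA of Mycl began 8 bases before the start, and 13.6% of the 32851 promoters in the table hold TATAAA on either strand. It was searched for after the sequence had been seen. The E-box CACGTG (in 7.15% of promoters), the core of sites that IRF factors bind (GAAA, any 2 bases, GAAA; 3.44%) and a nuclear receptor repeat (AGGTCA, any base, AGGTCA; 0.0396%) occurred on neither strand of either window. The Gm42517 window was 75.3% G or C, a share reached by 3.63% of promoters, and that of Mycl 64.0%, reached by 20.3%.

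Each of the 4 genes was higher in every FI3KO library than in any WT TRAP library. Of the 13624 genes tested in this comparison, 5.39% were higher without overlap, 1.74% rose past both cutoffs of the study (adjusted p of at most 0.05 and log2 fold change of at least 1, edgeR's quasi-likelihood test) and 37.4% passed the adjusted p in either direction. Since the members were chosen on this contrast, nothing is read from their share. Among genes past both cutoffs whose average log2 CPM reached 1 and whose groups were apart, the next below Smim5 by log2 fold change were Steap2 (2.44), Smim10l2a (2.40) and Disp2 (2.36). Per length of transcript, the members' mean levels in FI3KO lay close together, at 12.3 TPM (reads per transcript length, scaled to a common total) for Smim5, 11.6 for Mycl, 10.8 for Gm9747 and 10.4 for Gm42517, with SDs of 4.93, 8.71, 3.99 and 4.84 TPM. These neighbours in the order did not differ beyond their spread. In WT TRAP, the levels were 2.02 ± 1.67 TPM for Smim5, 1.99 ± 1.41 for Mycl, 1.11 ± 0.69 for Gm42517 and 1.03 ± 1.71 for Gm9747 (n = 6).

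**Figure D1:**
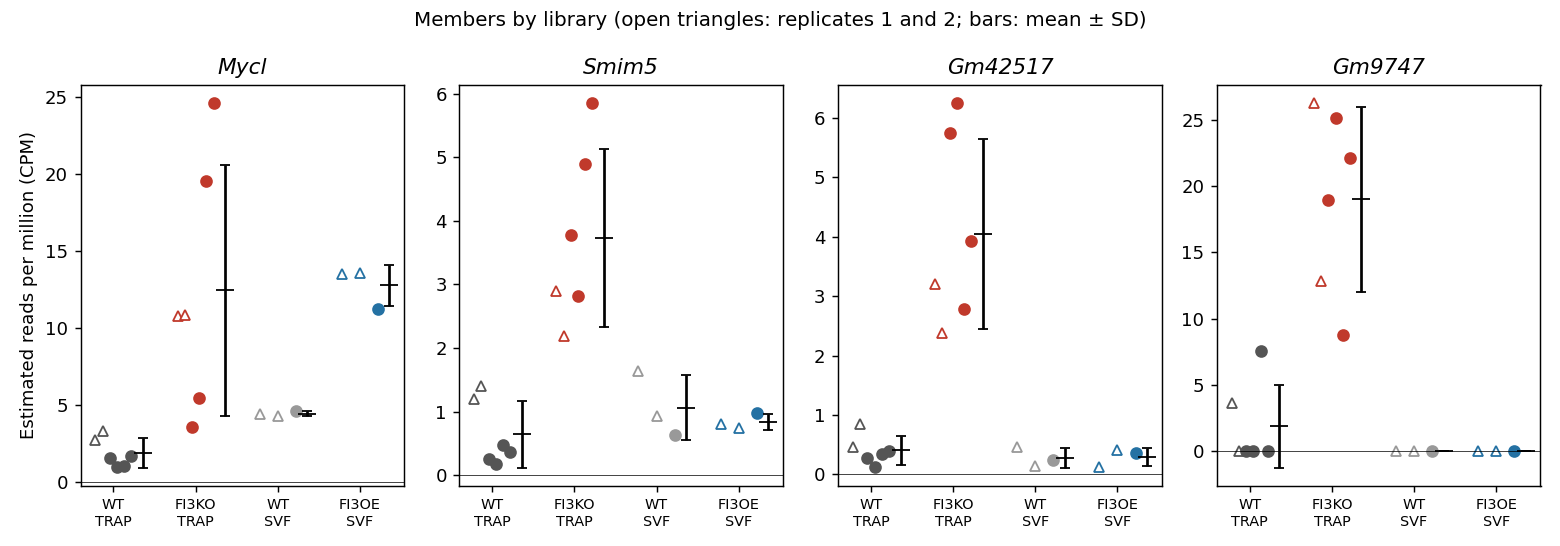
Level of each member in every library, in CPM on linear axes that differ between panels, by group; open triangles are replicates 1 and 2, filled circles the other replicates, and bars the mean ± SD. In TRAP, the FI3KO libraries lie above all WT libraries for each gene, and in SVF-derived adipocytes only the Mycl groups are apart.

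Mycl was the most variable member in FI3KO. Its level there ran from 3.56 through a median of 10.8 to 24.6 CPM, and in WT TRAP from 0.95 through 1.61 to 3.32 CPM. The groups came close without overlapping, the lowest FI3KO library being 1.07 times the highest WT library. The means were 12.4 ± 8.14 and 1.87 ± 0.95 CPM (n = 6 each), a 6.66-fold ratio, and the fitted log2 fold change was 2.77 with a standard error (SE) of 0.48. The values rest on 96.1 to 791 reads in FI3KO and 26 to 126 in WT. Salmon gave at least 94.3% of the FI3KO reads and 84.9% of the WT reads to the transcripts Mycl-201 and Mycl-202 together, but the share of Mycl-201 alone ranged from 54.1% to 100% of the gene's reads in FI3KO and from 0 to 100% in WT, so that these data do not tell the transcripts apart at WT depth.

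Smim5 spread less than Mycl in FI3KO but more in WT TRAP, relative to its level. FI3KO libraries held 2.19, 3.33 and 5.85 CPM (lowest, median and highest), and WT libraries 0.17, 0.42 and 1.397 CPM. The highest WT values were those of replicates 1 and 2, and the lowest FI3KO library was 1.57 times the highest of them. The means were 3.74 ± 1.398 and 0.64 ± 0.52 CPM (n = 6 each), 5.83-fold apart, with a log2 fold change of 2.56 (SE 0.47). Reads numbered 68 to 198 in FI3KO but 6 to 53 in WT, so the ratio rests on few WT reads. In FI3KO, Smim5-203 took 60.4% to 74.2% of the reads and Smim5-202 took 23.5% to 36.8%.

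Gm42517 was the member whose groups lay farthest apart. Its FI3KO levels were 2.38, 3.56 and 6.25 CPM, and its WT levels 0.12, 0.37 and 0.84 CPM (lowest, median and highest). The lowest FI3KO library was 2.83 times the highest WT library. The means of 4.05 ± 1.60 and 0.41 ± 0.24 CPM (n = 6 each) gave a 9.92-fold ratio and a log2 fold change of 3.32 (SE 0.39), on 74 to 202 reads in FI3KO and 4 to 32 in WT. Gm10419, which shares exon bases with Gm42517, was at 0.28 to 0.78 CPM in FI3KO and 0.03 to 0.18 CPM in WT TRAP, also without overlap, and was too low to be tested. The library protocol does not mark strand, so reads of the shared bases cannot be told apart.

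Gm9747 had the largest fitted log2 fold change of the members and the largest error, 3.46 (SE 0.99). FI3KO libraries held 8.75, 20.5 and 26.3 CPM (lowest, median and highest). In WT TRAP, 4 of 6 libraries were listed at 0, replicate 1 held 3.65 CPM and replicate 5 held 7.54 CPM. The lowest FI3KO library was 1.16 times that WT library, and the means were 19.0 ± 6.99 and 1.86 ± 3.14 CPM (n = 6 each), 10.2-fold apart. Without WT replicate 5 the log2 fold change was 4.80, and replicate 1 was then the only WT library above 0.

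The whole of Gm9747 lies in the transcribed sequence of Irs1. All 2822 of its exon bases fall in the last Irs1 exon (chr1:82233101-82237604, minus strand), in the 3′ UTR. The reverse complement of the Gm9747 transcript was found without a mismatch in the Irs1 transcript, at bases 6312 to 9133 of 9144. Without strand information, a read from these bases is compatible with both transcripts, and the reads given to each depend on how Salmon divided them. Of the reads of both genes, Salmon gave Gm9747 from 4.64% (exact 95% interval 4.18 to 5.13%) to 16.6% (15.5 to 17.8%) in FI3KO, 3.47% (2.86 to 4.17%) in WT replicate 1 and 10.7% (9.33 to 12.2%) in WT replicate 5. In the other 4 WT TRAP libraries and all 6 SVF libraries it gave none, where a count of 0 allows 0.0436% to 0.151% of the reads of both genes, set at 3 reads rather than by the exact interval, whose upper bounds were 0.0536% to 0.186%. These intervals and limits cover counting error only, not the division of shared reads, which can go wholly to 1 transcript.

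Irs1 itself was higher in FI3KO. It was examined because of this overlap, after its values had been seen. FI3KO libraries held 132, 156 and 179.8 CPM (lowest, median and highest) and WT TRAP libraries 62.8, 66.9 and 103 CPM, with no overlap. The means were 155 ± 17.98 and 77.9 ± 19.1 CPM (n = 6 each), and the log2 fold change was 1.04 (SE 0.14). No p is given, since Irs1 shares reads with a member picked on this contrast. With the reads of both genes summed, the levels were 174 ± 15.3 CPM in FI3KO and 79.7 ± 19.0 CPM in WT TRAP, and the log2 fold change was 1.17 (SE 0.14). This is a description with no test, since the sum holds the reads that chose Gm9747. Whether RNA from the plus strand rose was not tested and cannot be told from these libraries.

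**Figure D2:**
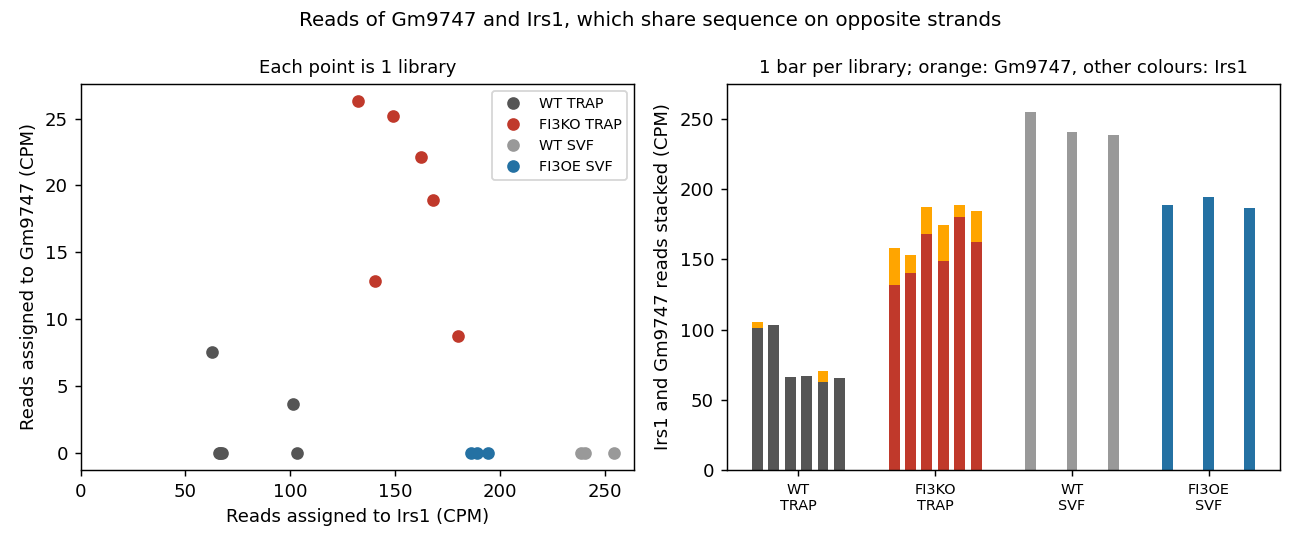
Left, reads given to Gm9747 against reads given to Irs1 in each of the 18 libraries (CPM); right, both stacked, 1 bar per library in order of replicate number, orange for Gm9747. Gm9747 takes a small part of the stacked reads in FI3KO, is at 0 in 4 of 6 WT TRAP libraries, and is at 0 in all SVF libraries although these have the highest Irs1 levels.

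Libraries of 1 group were not equally close to each other. Within FI3KO, the counts of replicates 1 and 2, 3 and 4, and 5 and 6 differed least (chi-square per degree of freedom of 35.96, 15.9 and 17.0 over genes, against 57.3 to 274 for the other pairs), and in WT TRAP those of replicates 1 and 2 (2.43) and 4 and 6 (8.38, against 37.9 to 134). All differed beyond sampling noise and were counted separately, but this does not show that the close libraries came from separate animals. Where libraries of a pair share an animal or pool, n = 6 counts it more than once and the TRAP p-values are too small; this cannot be told from these files. The members' levels followed these pairs in part. Mycl was at 10.7 and 10.8 CPM in FI3KO replicates 1 and 2, at 3.56 and 5.41 CPM in replicates 3 and 4, and at 19.5 and 24.6 CPM in replicates 5 and 6. Gm42517 had the reverse order in the last 4 libraries, with 5.74 and 6.25 CPM in replicates 3 and 4 and 2.79 and 3.92 CPM in replicates 5 and 6. Smim5 was highest in replicates 5 and 6 (4.89 and 5.85 CPM), where Mycl was highest. Gm9747 did not follow the pairs, with 26.3 and 12.9 CPM in replicates 1 and 2 and 8.75 and 22.1 CPM in replicates 5 and 6.

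**Figure D3:**
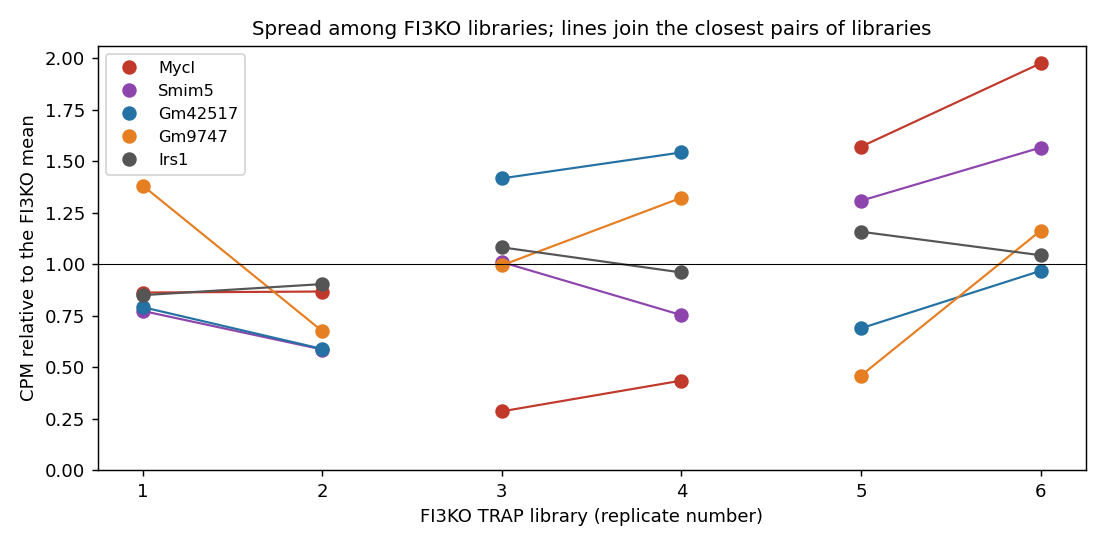
Level of each member and of Irs1 in the 6 FI3KO libraries, as CPM divided by the gene's FI3KO mean, by replicate number (replicates have no order); lines join the libraries that lay closest over all genes. Mycl is lowest in replicates 3 and 4, where Gm42517 is highest.

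The rises of Mycl, Smim5 and Gm42517 were larger in replicates 3 to 6 than in replicates 1 and 2, a difference that was not tested because it uses the contrast of the choice. The log2 fold change of Mycl was 1.89 (SE 0.16) in replicates 1 and 2 (2 libraries a group) and 3.42 (SE 0.62) in replicates 3 to 6 (4 libraries a group). For Smim5 the values were 1.02 (SE 0.26) and 3.86 (SE 0.34), and for Gm42517 2.12 (SE 0.36) and 4.09 (SE 0.37). For these 3 genes the WT mean was higher in replicates 1 and 2 than in the other WT libraries (3.00 against 1.30 CPM for Mycl, 1.30 against 0.31 CPM for Smim5, 0.65 against 0.28 CPM for Gm42517), and the FI3KO mean was lower (10.8 against 13.3, 2.54 against 4.33 and 2.80 against 4.67 CPM). Gm9747 gave 3.57 (SE 1.12) and 3.47 (SE 1.07), and Irs1 0.47 (SE 0.064) and 1.37 (SE 0.069). In each set, the WT reads of Gm9747 came from 1 library, replicate 1 (3.65 CPM) and replicate 5 (7.54 CPM). The members rose in both sets, and the labels name no batch that separates them.

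Other values moved with this split and with genotype. The summed level of 16 macrophage markers was 49.1 and 64.7 CPM in FI3KO replicates 1 and 2 and 37.6 to 42.2 CPM in the other FI3KO libraries, and 58.9 and 55.9 CPM in WT replicates 1 and 2 against 94.4 to 130 CPM in the other WT libraries. Of the 13 tested, 10 fell and 1 (Cd14) rose in FI3KO (edgeR). This and the marker counts that follow stand against 37.4% of all genes tested, 2605 higher and 2490 lower of 13624. The 14 dendritic cell markers summed to 26.7 to 38.0 CPM in FI3KO and 46.0 to 65.8 CPM in WT, and Siglech had at most 3 reads in any library. Of the 6 tested, Itgax, Cd74, H2-Ab1 and H2-Aa fell, whereas Zbtb46, a dendritic cell transcription factor gene, rose by 0.35 on the log2 scale (adjusted p = 0.01763, edgeR). The 18 adipocyte markers summed to 41603 to 47787 CPM in FI3KO and 47579 to 54829 CPM in WT, with 7 higher and 3 lower (Lep, Acsl1 and Dgat2) and a median log2 fold change of 0.20. The lower sum rested on Lep, the leptin gene, at 2975 ± 554 CPM in FI3KO and 9581 ± 2703 CPM in WT (n = 6): without it the sums were 38446 to 44937 CPM and 38786 to 44195 CPM, and overlapped. The 10 stromal progenitor markers (572 to 1055 CPM in FI3KO, 1020 to 2245 CPM in WT; Dlk1 had at most 3 reads) and the 10 endothelial and mural markers (278 to 543 and 617 to 883 CPM) also had lower sums in FI3KO. Each rested mainly on 1 gene, and these genes and Lep were chosen for leaving out after their values had been seen. Without Col1a1 (271 ± 157 CPM in FI3KO and 1005 ± 421 CPM in WT, n = 6) the stromal sums were 458 to 719 and 519 to 774 CPM, and of the 9 tested 4 fell (Dpp4, Cd55, Ly6a and Col1a1) and 1 rose, Dcn (68.5 ± 15.0 against 27.3 ± 11.2 CPM). Without Acta2, a smooth muscle actin gene (262 ± 72.9 against 616 ± 104 CPM), the endothelial and mural sums were 85.4 to 190 and 102 to 199 CPM. Acta2 was the 1 of 9 tested that fell and 0 rose, the list's median log2 fold change was 0.38, and the other 8 did not pass, with log2 fold changes of 0.84 for Kdr, 0.50 for Rgs5, 0.49 for Pecam1, 0.42 for Tek, 0.38 for Cdh5, 0.28 for Notch3, -0.17 for Vwf and -0.40 for Cspg4 (edgeR). The 10 megakaryocyte and erythroid markers (5.85 to 25.1 and 9.58 to 17.4 CPM, 0 of 4 tested passing) and 10 mesothelial markers (4.24 to 19.2 and 5.10 to 37.5 CPM, 0 of 7 passing) overlapped between groups, and lymphocyte and epididymal markers summed to at most 1.45 CPM in any TRAP library. Their part in the members' rises was not tested. In bulk RNA, a change in the number of cells of a type and a change in RNA per cell cannot be told apart. As a check of the labels, Irf3-202 had 0 reads in all 6 FI3KO libraries and 164 to 388 in the WT TRAP libraries. Other Irf3 transcripts were not at 0 in FI3KO, and Irf3-211 was higher there, at 46.0 against 1.14 TPM. Over all its transcripts Irf3 held 15.5 ± 2.19 CPM in FI3KO and 20.4 ± 2.05 CPM in WT, but 69.7 ± 14.5 and 44.4 ± 3.43 TPM (n = 6), so that the check rests on the transcript and not on the gene's total.

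In SVF-derived adipocytes, which played no part in the choice of members, Mycl was higher in FI3OE than in WT. The 3 FI3OE libraries held 13.5, 13.6 and 11.2 CPM and the 3 WT libraries 4.39, 4.27 and 4.61 CPM. The groups did not overlap. The means were 12.8 ± 1.34 and 4.42 ± 0.17 CPM, a 2.88-fold ratio, and the log2 fold change was 1.54 (SE 0.11, 95% interval 1.30 to 1.78, adjusted p = 8.087e-07, edgeR). With all 18 libraries in 1 fit the log2 fold change was again 1.54 but did not pass (adjusted p = 0.1031, edgeR). A two-sided exact permutation test gave p = 0.1, the smallest that 3 libraries against 3 allow. Of the 16105 genes tested there, 1.99% rose past both cutoffs, 37.0% passed the adjusted p in either direction and 24.1% were higher without overlap. Mycl was thus higher than in the matching WT both in adipocytes without Irf3 and in adipocytes with active IRF3 and Cre. These adipocytes differ in depot, in culture and in how RNA was taken. By Salmon's division, Mycl-202 held 6.106 ± 2.112 TPM in FI3OE and 1.216 ± 1.164 TPM in WT SVF. Mycl-201 held 3.105 ± 2.425 and 2.036 ± 0.981 TPM there. In TRAP, Mycl-201 held 6.166 ± 3.378 TPM in FI3KO and 0.657 ± 0.537 TPM in WT. Mycl-202 held 3.214 ± 2.932 and 0.773 ± 0.748 TPM in TRAP. Whether the same transcript rose in both was not tested.

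These cultures also held reads of other cell types. The macrophage markers summed to 2509 to 2538 CPM in FI3OE and 2516 to 2677 CPM in WT, with 6 of 16 higher and 5 lower (edgeR), where 37.0% of all genes tested passed, 3249 higher and 2711 lower of 16105. The dendritic cell markers summed to 158 to 186 CPM in FI3OE and 89.5 to 94.5 CPM in WT, without overlap. The higher sum rested on Bst2, an interferon-induced gene that many cells express (152 ± 16.4 and 62.4 ± 1.401 CPM). Bst2 was the 1 of 6 tested that rose. The 2 that fell were Zbtb46, by 0.60 on the log2 scale (adjusted p = 0.0001711, 12.7 ± 1.43 and 19.5 ± 0.63 CPM), and H2-Ab1, by 0.84 (adjusted p = 0.03808, edgeR). Cd74 (-0.72), Ccr9 (-0.38) and Xcr1 (-0.125) did not pass. Cd209a, Ccr7, Siglech and H2-Aa had at most 3 reads in a library. The adipocyte markers summed to 14149 to 14165 CPM in FI3OE and 14715 to 14935 CPM in WT, with 5 of 18 higher and 9 lower (edgeR). The lower sum rested on Lpl (4293 ± 119 and 5164 ± 49.4 CPM), which fell by 0.25 on the log2 scale. The median log2 fold change of these 18 was -0.09. The stromal progenitor markers summed to 14131 to 14220 CPM in FI3OE and 13908 to 14279 CPM in WT. Of the 10 tested, 1 rose (Ly6a, by 1.83 on the log2 scale, from 390 ± 12.8 to 1374 ± 69.9 CPM) and 2 fell (Col3a1 and Col1a1). The endothelial and mural markers summed to 638 to 725 and 634 to 722 CPM, with 1 of 8 tested higher (Tek) and 2 lower (Cspg4 and Notch3, edgeR). The part of all these markers in the rise of Mycl was not tested.

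Smim5 did not pass the test in SVF-derived adipocytes. FI3OE libraries held 0.80, 0.74 and 0.97 CPM and WT libraries 1.63, 0.93 and 0.63 CPM, on 16 to 39 reads. The groups overlapped, and the WT spread was set by replicate 1. The log2 fold change was -0.31 (SE 0.34, 95% interval -1.06 to 0.45, adjusted p = 0.5255, edgeR; exact permutation p = 0.7, two-sided), and without WT replicate 1 it was 0.14. The interval holds both falls and rises, so no direction is read from it.

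Gm42517 was near the limit of detection in SVF-derived adipocytes. FI3OE libraries held 0.13, 0.41 and 0.35 CPM and WT libraries 0.46, 0.14 and 0.24 CPM, from 3 to 13 reads each. The groups overlapped and the gene did not pass the filter on low counts. Its level was 0.30 ± 0.15 CPM in FI3OE and 0.28 ± 0.16 CPM in WT (n = 3, exact permutation p = 1.0, two-sided), and without the filter the log2 fold change was 0.14 (adjusted p = 0.9122, edgeR). A difference was not detectable at this depth. Gm9747 was listed at 0 in all 6 SVF libraries, so it has no fold change.

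Irs1 was lower in FI3OE, where no reads were given to Gm9747. FI3OE libraries held 188.9, 194 and 186 CPM and WT libraries 254, 240.4 and 238 CPM, without overlap. The means were 189.9 ± 4.13 and 244 ± 8.76 CPM (n = 3 each), and Irs1 fell by 0.35 on the log2 scale (SE 0.038, adjusted p = 2.867e-05, edgeR). With all 18 libraries in 1 fit it was at -0.34 and did not pass (adjusted p = 0.303, edgeR).

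Of the 12 other genes of the MYC network, 10 were tested in TRAP and 4 passed at an adjusted p of 0.05, against 37.4% of all genes tested, which is near the background and no result about the network. Mxi1, a MAX partner that opposes MYC, rose by 0.31 (log2, adjusted p = 0.0212, edgeR), but did not pass without FI3KO replicate 4 (adjusted p = 0.05239) or 6 (0.05227) or without WT replicate 3 (0.0522) or 4 (0.05092), nor with an offset for transcript length (0.06781) or all 18 libraries in 1 fit (0.0646), and with replicates 1 and 2 alone its direction turned, to -0.075 (adjusted p = 0.6283, edgeR). MLX partners and MLX itself fell, by 0.39 for Mlx (adjusted p = 0.0186), 0.31 for Mlxip (adjusted p = 0.000717) and 0.25 for Mlxipl (adjusted p = 0.0201), on the log2 scale in edgeR. With replicates 1 and 2 alone, none of these 3 passed, at -0.38 for Mlx (adjusted p = 0.1231), -0.19 for Mlxip (0.1694) and -0.03 for Mlxipl (0.8705, edgeR). No gene of these passed both cutoffs, and the median log2 fold change of the 10 was -0.11, against 0.02 over all genes tested. Myc was at 1.79 ± 0.60 CPM in FI3KO and 1.962 ± 0.67 CPM in WT TRAP (n = 6, adjusted p = 0.8456, edgeR), and Mycn had at most 3 reads in a library.

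In SVF-derived adipocytes all 12 were tested and 4 passed at an adjusted p of 0.05, against 37.0% of all genes tested, again no result about the network. Mycn rose by 1.31 on the log2 scale (adjusted p = 0.0205, edgeR), from 0.26 ± 0.085 to 0.67 ± 0.15 CPM (n = 3), on at most 21 reads in a library. It did not pass without FI3OE replicate 1 (adjusted p = 0.08144), WT replicate 1 (0.06848) or WT replicate 2 (0.07326, edgeR), nor with all 18 libraries in 1 fit (0.3374, edgeR) or in DESeq2 (0.06242). Mlx rose by 0.55 (adjusted p = 1.231e-06), whereas Myc fell by 0.57 (adjusted p = 3.536e-05) and Mlxipl fell by 0.38 (adjusted p = 0.0078), on the log2 scale in edgeR. Myc did not pass with all 18 libraries in 1 fit (adjusted p = 0.3169), nor did Mlxipl with an offset for transcript length (0.08124) or robust dispersion estimates (0.07936, edgeR), and without WT replicate 1 Mlxipl was at -0.23 (adjusted p = 0.009985). The level of Myc was 17.96 ± 0.27 CPM in WT and 12.0 ± 0.24 CPM in FI3OE (n = 3). The difference between the MYC family genes was not tested. The median of the 12 was -0.07, against -0.00 over all genes tested.

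**Figure D4:**
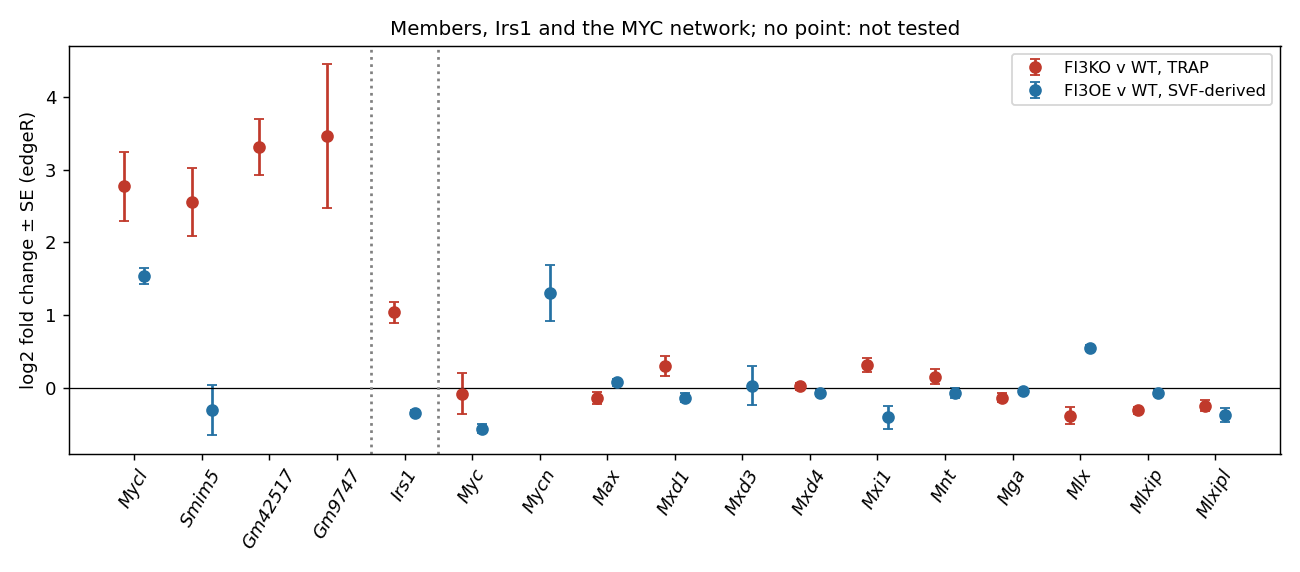
Log2 fold change ± SE (edgeR) of the members, of Irs1 and of the 12 other MYC network genes, FI3KO against WT in TRAP (red) and FI3OE against WT in SVF-derived adipocytes (blue); genes that were not tested have no point. Mycl lies above 0 in both comparisons and Irs1 on opposite sides.

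The genes beside the members were read from the same fit in FI3KO; since the members were picked for large rises, no comparison of size is drawn. Next to Mycl, Trit1, which encodes a tRNA-modifying enzyme, rose by 0.54 on the log2 scale (adjusted p = 0.00498, edgeR), Ppie rose by 0.30 (adjusted p = 0.0459), Cap1 fell by 0.40 (adjusted p = 0.0077), and Ppt1 was at 0.03 (adjusted p = 0.868). Around Smim5, Recql5, a DNA helicase gene that spans it, rose by 0.33 (adjusted p = 0.0232, edgeR; 0.06087 without FI3KO replicate 6 and 0.05441 without WT replicate 3) and Llgl2 fell by 0.29 (adjusted p = 0.00876), and Tsen54 (0.25), Sap30bp (0.16) and Itgb4 (-0.06) did not pass. With replicates 1 and 2 alone, Recql5 was at 0.01 on the log2 scale (adjusted p = 0.9718, edgeR) and Trit1 at 0.51 (adjusted p = 0.07567). Near Gm42517, Atp5k rose by 0.44 (adjusted p = 0.0153, edgeR), Dr1 rose by 0.26 (adjusted p = 0.0117), Mfsd7a fell by 1.56 (adjusted p = 5.519e-06) and Pigg was at -0.04 (adjusted p = 0.693). Beside Gm9747 and Irs1, Rhbdd1 was at -0.44 (adjusted p = 0.0557, edgeR).

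The genes whose pattern over the 12 TRAP libraries was most like that of each member were sought by Pearson r of log2(CPM + 0.5), given with no p since the libraries share genotype and the pairs described above. For Mycl they were Ybx3, Pnpla2 (the lipase ATGL), Gjc1 and Ephx2, with r from 0.97 to 0.98. For Smim5 they were Gprasp1, Podn, Ccdc80, Fgf10 and Adrb3 (the beta-adrenergic receptor of adipocytes), with r from 0.98 to 0.99. For Gm42517 they were Flywch1, Ndufs7, Cebpa (a transcription factor of adipocyte differentiation), Rpl22 and Pdcd7, with r from 0.97 to 0.98. For Gm9747 they were Imp3, Kit, Cirbp, Dedd2 and Fam118a, with r from 0.93 to 0.95. Over deviations from the group means, which leave out the difference between genotypes, these genes had lower r. It ran from 0.90 to 0.94 for Mycl, 0.92 to 0.96 for Smim5, 0.75 to 0.89 for Gm42517 and 0.72 to 0.83 for Gm9747. Among the members, these deviations gave r = 0.62 for Mycl and Smim5 and 0.47 for Smim5 and Gm42517. Gm9747 had 0.185 with Smim5, 0.18 with Gm42517 and -0.15 with Mycl, and Mycl and Gm42517 had -0.21. With Irs1, r was 0.87 for Smim5, 0.46 for Mycl, 0.46 for Gm42517 and -0.03 for Gm9747.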

How the data were processed

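Estimated (expected) counts and TPM per transcript were deposited for 18 libraries, with effective transcript lengths. According to the labels and the study's methods, the authors trimmed reads with fastp and quantified them with Salmon 1.4.0 against GENCODE transcripts of GRCm38, with sequence and GC bias correction. The deposited expected counts were summed per gene through the GENCODE M21 annotation, by transcript ID without version (117850 of 118733 transcripts; 0.375% to 1.08% of reads unmatched), and rounded. Libraries held 25259869 to 40490283 reads in TRAP and 21541334 to 36932452 in SVF, and the number of libraries limits precision further. Each comparison was fitted alone with edgeR 4.0.16 (R 4.3.3; filterByExpr, TMM, quasi-likelihood test, Benjamini-Hochberg adjustment over all genes tested, no covariate). Exact permutation tests (SciPy 1.17.1) used log2(CPM + 0.5). Scripts were tested on simulated data. Alternatives included DESeq2 1.42.0, other filters, a length offset, subsets of libraries and a replicate block.

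The members and gene lists were chosen with earlier results of these data known. Named genes were the members, network genes past adjusted p 0.05, overlapping genes and the nearest 2 tested on each side within 200 kb, the 5 most alike per member, and the next genes in order of rise; 1 item these rules name is not reported here. Myc in TRAP and Irs1 were added. The planned protein sequences were not used here.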

Additional observations from a re-analysis of the deposited data

How the results depend on the processing

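The members stayed higher in FI3KO TRAP under each alternative that gave a value. With replicates 1 and 2 alone the log2 fold changes were 1.89 for Mycl, 1.02 for Smim5 and 2.12 for Gm42517, and with replicates 3 to 6 alone 3.86 for Smim5 and 4.09 for Gm42517. Leaving out 1 library at a time gave 2.46 to 3.03 for Mycl, 2.36 to 2.97 for Smim5, 3.12 to 3.70 for Gm42517 and 3.17 to 4.80 for Gm9747, the last without WT replicate 5. In SVF-derived adipocytes, Mycl kept its direction (1.48 to 1.63 with 1 library left out) and passed the test except with all 18 libraries in 1 fit (1.54, adjusted p = 0.1031, edgeR), where Irs1 (-0.34, adjusted p = 0.303) did not pass either. Smim5 ranged from -0.58 to 0.14 with 1 library left out. Mxi1 in TRAP turned to -0.075 with replicates 1 and 2 alone. With a filter of 10 counts in every library, only Mycl of the members was tested in TRAP.

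The same replicate numbers did not pair the samples, since the deviations of same-numbered libraries had r from -0.293 to 0.104 in TRAP and from -0.046 to 0.015 in SVF. With the replicate block, Gm9747 was at 5.15, Mycl at 2.60 in TRAP and at 1.53 in SVF, 0 other network genes rose in TRAP, and Recql5 (adjusted p = 0.05801), Mlxipl (adjusted p = 0.06545) and Mxi1 (adjusted p = 0.07912, all edgeR) did not pass in TRAP.

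Genes past both cutoffs in TRAP numbered 237 higher and 664 lower. They were 117 and 74 with replicates 1 and 2 alone and 554 and 1314 with replicates 3 to 6 alone; the lower ones were 415 with at least 10 counts in every library and 1029 with all 18 libraries in 1 fit. In SVF, 321 were higher and 262 lower, against 205 and 137 with all 18 libraries in 1 fit and 173 lower with at least 10 counts. Leaving out 1 library gave 0 to 2 other network genes higher in TRAP, where 0 rose with the length offset, with all 18 libraries or with replicates 1 and 2 alone (0 lower there too), and 3 rose with replicates 3 to 6. In SVF, 1 to 2 rose with 1 library left out, and 1 rose with DESeq2, with at least 10 counts or with all 18 libraries, while 1 was lower with all 18 libraries or with robust dispersions. The cause was not tested. Low counts of Smim5 and Gm42517 in WT TRAP and SVF limit their folds, and missing strand information limits Gm9747.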
